A study of Mus musculus with 2 samples.

Results

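The genes described here are 10 of the 32285 genes counted in 2 single-cell RNA sequencing libraries of mouse palatal gingiva. They are the insulin-like growth factor genes *Igf1* and *Igf2*, the receptor gene *Igf1r*, the binding protein genes *Igfbp2*, *Igfbp3*, *Igfbp4*, *Igfbp5* and *Igfbp7*, the protease gene *Pappa* and the non-coding RNA gene *H19*. They were taken by symbol, and all 10 were found. Their levels across the cell types and between these same libraries, and their shared or separate use within basal cells, led to the choice. All of these are therefore given as a description, and no test was made on them.

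The mice were female wild type animals of 8 to 12 weeks of age, C57BL/6 by the strain label and C57Bl6/J by the treatment protocol. In each group, 3 µl of a ligand at 1 µg/ml was placed on the palate under an oral appliance for 1 h, and the palatal gingiva was harvested on day 4. One group received CpG ODN, an unmethylated oligodeoxynucleotide that is a ligand of TLR9, and the other received *P. gingivalis* LPS, a ligand of TLR2/4. Both groups were thus treated, and an untreated gingiva was not analysed here. Equal numbers of cells from 4 mice were pooled into 1 library per ligand, so no comparison between the ligands has a replicate check. The pooled mice, the depth of the library and the ligand cannot be told apart.

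IGF1 and IGF2 are growth factors that signal through the receptor tyrosine kinase IGF1R. The binding proteins hold the ligands outside the cell, IGFBP7 with low affinity, and the metalloproteinase PAPPA frees ligand by cutting IGFBP4 and some other binding proteins. In stratified epithelium the receptor is known mainly from the basal layer, and dermal fibroblasts are a known source of IGF1. *H19* is transcribed from the maternal allele of an imprinted domain whose paternal allele transcribes *Igf2*, and it is the host of the microRNA miR-675.

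The positions below are those of GRCm38. *H19* (chr7:142575529-142578143, minus strand) and *Igf2* (chr7:142650766-142666816, minus strand) lay 72.62 kb apart, with 1 annotated gene between them. Both mature arms of miR-675 lie within exon sequence of *H19*, at chr7:142577112-142577133 and chr7:142577078-142577099. They are shown because every *H19* molecule counted below comes from their host gene. Capitals mark the seed, bases 2 to 8, and neither seed was shared with another mature microRNA of the RefSeq table. UMIs at the 3′ ends of polyadenylated RNA do not measure these mature forms.
mmu-miR-675-5p: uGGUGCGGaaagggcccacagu
mmu-miR-675-3p: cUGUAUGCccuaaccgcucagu

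*Igfbp2* (chr1:72824503-72852474, plus strand) and *Igfbp5* (chr1:72857932-72874884, minus strand) are neighbours whose 3′ ends face each other across 5457 bases with no annotated gene between them. The neighbours were high in different cell types, so the 250 bases before their starts are printed, with those of *Igfbp3* (gene at chr11:7206086-7213923, minus strand), the binding protein gene that went opposite to *Pappa* within the basal layer. The windows were read 5′ to 3′ on the strand of each gene from RefSeq promoters of GRCm38.p6, at chr1:72824230-72824479, chr1:72874866-72875115 and chr11:7213924-7214173. Capitals mark matches, on either strand, to a GC box (GGGCGG), an AP-2 motif (GCCNNNGGC), a TATA box (TATAAA) or an AP-1 motif (TGANTCA).
Igfbp2: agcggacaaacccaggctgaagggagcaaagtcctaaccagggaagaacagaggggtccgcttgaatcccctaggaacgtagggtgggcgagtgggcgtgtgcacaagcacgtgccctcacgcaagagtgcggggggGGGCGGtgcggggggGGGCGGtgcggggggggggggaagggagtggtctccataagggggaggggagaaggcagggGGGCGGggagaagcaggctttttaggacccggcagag
Igfbp5: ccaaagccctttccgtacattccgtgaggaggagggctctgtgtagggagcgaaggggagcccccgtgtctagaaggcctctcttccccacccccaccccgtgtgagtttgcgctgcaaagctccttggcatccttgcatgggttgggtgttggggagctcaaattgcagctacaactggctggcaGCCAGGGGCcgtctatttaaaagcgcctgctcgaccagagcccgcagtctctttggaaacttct
Igfbp3: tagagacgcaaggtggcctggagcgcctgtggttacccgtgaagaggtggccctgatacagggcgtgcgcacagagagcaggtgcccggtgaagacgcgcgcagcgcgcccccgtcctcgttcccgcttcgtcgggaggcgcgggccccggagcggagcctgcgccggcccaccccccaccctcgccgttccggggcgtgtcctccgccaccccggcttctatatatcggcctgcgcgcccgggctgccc

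Distances count from the RefSeq start at the end of each window. For *Igfbp2*, which has 2 listed starts, and for *Igfbp5*, this is not the gene start given above. The *Igfbp2* window held 3 GC boxes, 107, 92 and 31 bases before the RefSeq start. One AP-2 motif stood 55 bases before the start of *Igfbp5*, and the *Igfbp3* window held none of the 4 motifs. Among the same windows of all 32851 listed promoters, 32.7% held the GC box, 13.7% the AP-2 motif, 12.4% the TATA box and 6.75% the AP-1 motif. The windows of *Igfbp2*, *Igfbp5* and *Igfbp3* were 67.2%, 58.8% and 73.2% G or C, against a median of 52.4%, and held 14, 10 and 32 CpG dinucleotides, against a median of 6. These matches describe letters and were not tested as binding sites.

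The remaining genes were *Igf1* (chr10:87858265-87937042, plus strand), *Igf1r* (chr7:67952827-68233668, plus strand), *Igfbp4* (chr11:99041244-99054392, plus strand), *Igfbp7* (chr5:77349240-77408041, minus strand) and *Pappa* (chr4:65124174-65357509, plus strand). *H19*, *Igf1*, *Igf2* and *Igfbp7* overlap annotated genes on the opposite strand, and those at *H19* were not among the counted genes. Of the counted ones, *Igf2os* had 1 UMI after CpG ODN and 0 after LPS.

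Of the cell barcodes, those with 800 or more detected genes were used, 4888 after CpG ODN and 1277 after LPS. The median cell held 11077.5 UMIs (unique molecular identifiers, each a counted RNA molecule) after CpG ODN and 22680 after LPS, and the libraries shared 1 cell barcode. Cells were clustered without the 10 genes and called by their markers. Basal-like cells, led by *Col17a1*, *Itgb4* and *Krt5*, numbered 1143 after CpG ODN and 276 after LPS. A cluster led by *Adh7*, *Barx2* and *Krt15*, here called Adh7-led, held 132 and 91 cells, which is 2.70% and 7.13% of each library. Above the basal layer, intermediate cells numbered 1338 and 254 and upper-like cells, rich in *Krt76* and *Krt10*, 849 and 240. Fibroblast-like cells, led by *Dcn*, *Dpt* and *Col3a1* in the larger of their 2 clusters, numbered 235 and 53.

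Levels are given as CPM, the UMIs of a gene per 1000000 UMIs summed over the cells of a class, with exact 95% Poisson intervals in brackets. These intervals, and those of ratios and shares, cover counting error only and not the spread between mice. In each paired value the CpG ODN library comes first and the LPS library second. In B-like cells, which should lack these genes, the median cell had 2149.5 and 3157 UMIs, and the level of each of the 10 genes was at most 7.38 CPM after CpG ODN and 8.45 CPM after LPS.

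**Figure D1:**
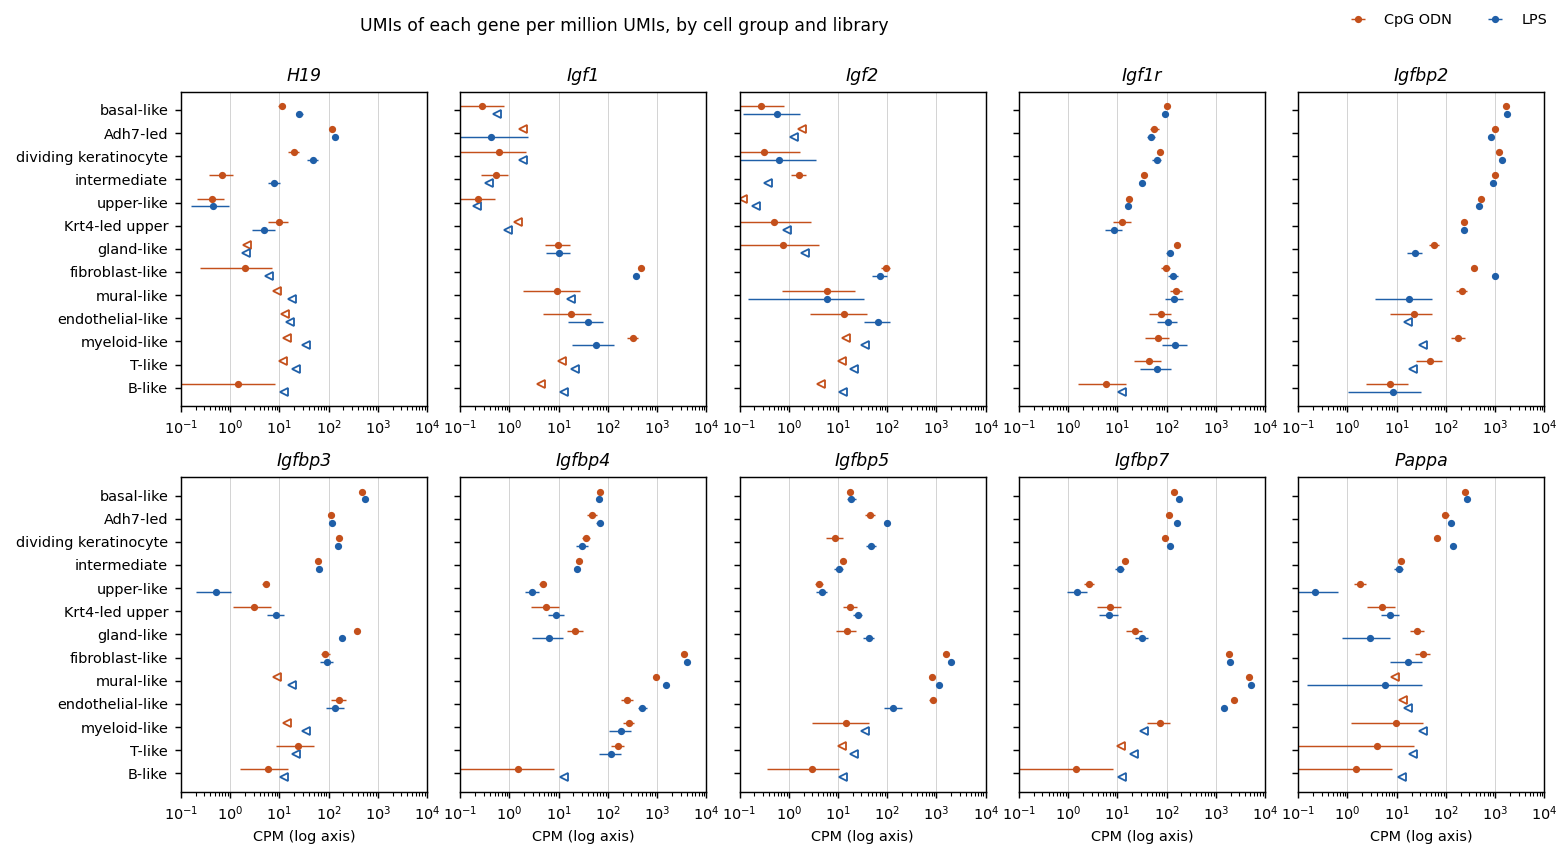
Levels of the 10 genes (panels) by cell class (rows) in CPM on a log axis, with CpG ODN in orange and LPS in blue. Points have exact 95% Poisson intervals, and an open triangle marks a class with no UMI, at the CPM of 3 counts. *Igf1* and *Igf2* stand out in fibroblast-like cells, *Igfbp2*, *Igfbp3* and *Pappa* in basal-like cells, *H19* in Adh7-led cells, and *Igfbp7* in mural-like cells.

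The ligand genes were expressed in the connective tissue and were nearly absent from the epithelium. *Igf1* was at 475 CPM (433 to 519) and 375 CPM (322 to 434) in fibroblast-like cells, where 60.9% and 66.0% of cells had a UMI. Fibroblast-like cells held 81.5% and 86.8% of all *Igf1* UMIs. In basal-like cells, *Igf1* had 3 UMIs after CpG ODN and 0 after LPS. The fibroblast-like level was 1750-fold (595 to 8518) the basal-like level after CpG ODN and at least 657-fold higher after LPS, the latter against a floor of 3 counts.

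Myeloid-like cells were the next in order for *Igf1* after CpG ODN, at 319 CPM (247 to 406) in 33 cells. After LPS, 13 myeloid-like cells gave 57.7 CPM (18.7 to 135), from 5 UMIs. The myeloid-like and fibroblast-like intervals did not overlap in either library.

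*Igf2* was at 93.0 CPM (75.1 to 114) and 71.6 CPM (49.6 to 100) in fibroblast-like cells, from 94 and 34 UMIs, and these cells held 68.1% and 65.4% of its UMIs. Basal-like cells had 3 *Igf2* UMIs in each library, and upper-like and Adh7-led cells had none, which allows up to 0.117 and 0.221 CPM in upper-like cells and 1.84 and 1.27 CPM in Adh7-led cells. Endothelial-like cells gave 13.3 CPM (2.75 to 38.9) and 66.4 CPM (34.3 to 116), the latter overlapping the fibroblast-like interval after LPS. Of the 33 *Igf2* UMIs in intermediate cells after CpG ODN, 30 were in 1 cell. A UMI of both *Igf1* and *Igf2* was found in 32 of 4888 and 15 of 1277 cells.

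The receptor gene was spread more evenly than its ligands. *Igf1r* was at 100.02 CPM (94.2 to 106) and 92.1 CPM (84.1 to 101) in basal-like cells and at 97.0 CPM (78.7 to 118) and 137 CPM (106 to 175) in fibroblast-like cells. The fibroblast-like to basal-like ratio was 0.969 (0.780 to 1.19) after CpG ODN and 1.49 (1.13 to 1.93) after LPS. *Igf1r* levels were lower in each step away from the basal layer, at 35.0 (32.5 to 37.6) and 31.4 (27.6 to 35.6) CPM in intermediate cells and 17.1 (15.5 to 18.8) and 16.8 (14.7 to 19.1) CPM in upper-like cells. Gland-like cells had 165 CPM (144 to 188) and 115 CPM (98.3 to 135). The 103 and 65 gland-like cells thus exceeded basal-like cells after CpG ODN, while the 2 intervals overlapped after LPS.

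The 5 binding protein genes fell into an epithelial and a stromal group. Keratinocyte classes held 98.9% and 97.7% of the UMIs of *Igfbp2* and 90.8% and 90.8% of those of *Igfbp3*. The same share was 28.4% and 26.0% for *Igfbp4*, 25.4% and 33.6% for *Igfbp5*, and 37.0% and 41.9% for *Igfbp7*. Of the other UMIs of these 3 genes, most were in fibroblast-like, mural-like and endothelial-like cells.

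*Igfbp2*, whose product binds both ligands, was at 1684 CPM (1659 to 1708) and 1739 CPM (1703 to 1775) in basal-like cells, and 99.3% and 100% of basal-like cells had a UMI. It remained well above the B-like level in the layers above. Intermediate cells had 1016 CPM (1002 to 1030) and 915 CPM (894 to 936), and upper-like cells 504 CPM (495 to 513) and 465 CPM (454 to 477). Within the 4 upper-like clusters, *Igfbp2* went from 711 and 752 CPM in the cluster led by *Ccl20* and *Cryba2* to 108 and 21.4 CPM in the cluster led by the cornified layer gene *Lor*. The basal-like to upper-like ratio was 3.34 (3.27 to 3.42) and 3.74 (3.62 to 3.86).

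*Igfbp3*, the gene of the main serum carrier of IGFs, was at 469 CPM (456 to 482) and 561 CPM (541 to 581) in basal-like cells, where 66.8% and 73.9% of cells had a UMI. Its level was 62.4 CPM (59.0 to 65.9) and 64.2 CPM (58.7 to 70.1) in intermediate cells and 5.33 CPM (4.48 to 6.30) and 0.516 CPM (0.207 to 1.06) in upper-like cells. Basal-like over upper-like, this was a ratio of 88.0 (74.2 to 105) after CpG ODN and 1087 (527 to 2705) after LPS, where the upper-like cells held 7 UMIs. Gland-like cells had 374 CPM (341 to 408) and 189 CPM (167 to 214), and endothelial-like cells 160 CPM (112 to 221) and 138 CPM (89.5 to 204). Mural-like cells had no *Igfbp3* UMI in either library, which allows up to 9.11 and 17.8 CPM.

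*Igfbp4*, the binding protein gene best known as a PAPPA substrate, was at 3592 CPM (3476 to 3711) and 4053 CPM (3874 to 4238) in fibroblast-like cells. Mural-like cells came next at 953 CPM (851 to 1065) and 1493 CPM (1315 to 1689). Endothelial-like cells had 244 CPM (184 to 318) and 504 CPM (406 to 618), and myeloid-like cells 266 CPM (200 to 346) and 185 CPM (106 to 300). T-like cells had 158 CPM (113 to 216) and 114 CPM (65.4 to 186). Basal-like cells had 70.5 CPM (65.7 to 75.7) and 67.4 CPM (60.6 to 74.8). The fibroblast-like to basal-like ratio was 50.9 (47.1 to 55.1) and 60.1 (53.7 to 67.5).

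*Igfbp5*, a neighbour of *Igfbp2*, showed a like order, at 1541 CPM (1466 to 1620) and 1950 CPM (1827 to 2080) in fibroblast-like cells, 817 CPM (722 to 920) and 1114 CPM (960 to 1285) in mural-like cells, and 17.4 CPM (14.99 to 20.0) and 18.7 CPM (15.1 to 22.7) in basal-like cells. Endothelial-like cells had 835 CPM (720 to 963) and 133 CPM (85.1 to 198), but only 12.2% and 25.0% of them had a UMI, and 45.7% and 70.8% of these UMIs were in 1 cell. The neighbours went opposite ways between these classes. The fibroblast-like to basal-like ratio was 0.223 (0.201 to 0.247) and 0.584 (0.532 to 0.640) for *Igfbp2* against 88.8 (76.4 to 104) and 105 (84.8 to 130) for *Igfbp5*. Both were seen in 458 of the 622 cells with *Igfbp5* after CpG ODN and 227 of the 287 after LPS, of 3723 and 971 cells with *Igfbp2*.

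*Igfbp7*, whose product is a secreted component of vessel walls, was highest in mural-like cells, at 4639 CPM (4409 to 4877) and 5143 CPM (4807 to 5497), and 100% of these 65 and 16 cells had a UMI. Endothelial-like cells had 2371 CPM (2174 to 2580) and 1439 CPM (1269 to 1625), and fibroblast-like cells 1854 CPM (1771 to 1940) and 1910 CPM (1788 to 2039). The order of the last 2 classes was therefore not the same in the 2 libraries. Basal-like cells had 142 CPM (135 to 149) and 176 CPM (165 to 188), and upper-like cells 2.65 CPM (2.06 to 3.36) and 1.55 CPM (0.958 to 2.37).

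*Pappa* was at 244 CPM (235 to 253) and 266 CPM (252 to 280) in basal-like cells, and 58.7% and 69.9% of basal-like cells had a UMI. Adh7-led cells had 96.5 CPM (82.0 to 113) and 129 CPM (115 to 144), and intermediate cells 12.0 CPM (10.6 to 13.6) and 11.0 CPM (8.78 to 13.6). Upper-like cells had 47 and 3 UMIs, at 1.83 CPM (1.34 to 2.43) and 0.221 CPM (0.0456 to 0.646). The gene of the protease was thus highest in basal-like cells, while its substrate gene *Igfbp4* was highest in fibroblast-like cells, where *Pappa* was at 33.6 CPM (23.3 to 47.0) and 16.9 CPM (7.27 to 33.2).

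*H19* was an epithelial RNA in these libraries, with 99.3% of 427 UMIs and 100% of 606 UMIs in keratinocyte classes. Adh7-led cells had 119 CPM (103 to 137) and 133 CPM (119 to 149), and held 45.2% and 52.0% of all *H19* UMIs. A UMI was found in 43.2% (34.6 to 52.1) and 53.8% (43.1 to 64.4) of Adh7-led cells, against 4.02% (2.96 to 5.33) and 11.2% (7.76 to 15.6) of basal-like cells and 0.352% and 0% of B-like cells. Thinned to 1500 UMIs per cell, which removes the difference in depth, the shares were 13.7% and 14.7% in Adh7-led and 1.22% and 2.53% in basal-like cells. The Adh7-led to basal-like ratio was 10.7 (8.47 to 13.5) after CpG ODN and 5.23 (4.26 to 6.45) after LPS.

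Dividing keratinocytes had 19.7 CPM (15.2 to 25.1) and 47.6 CPM (37.3 to 59.7), with 34.4% and 41.9% of these UMIs in 1 cell, and upper-like cells had 11 and 6 UMIs. Few cells carried most *H19*. It was seen in 150 of 4888 and 109 of 1277 cells, with a median of 1 and 3 UMIs in those cells, and the 10 cells with the most held 31.6% and 42.1% of its UMIs. A UMI of both *H19* and its neighbour *Igf2* was found in 3 cells of each library, of 70 and 30 cells with *Igf2*. Both genes were seen in few cells, so these counts do not show whether they were used apart. Fibroblast-like cells, which held most *Igf2*, had 2 and 0 *H19* UMIs.

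The Adh7-led cells differed from basal-like cells in other members as well. *Igfbp5* was at 45.5 CPM (35.7 to 57.1) and 99.5 CPM (87.2 to 113) there, 2.62-fold (1.98 to 3.44) and 5.33-fold (4.20 to 6.82) the basal-like level. *Igfbp3* was at 114 CPM (97.9 to 131) and 116 CPM (103 to 131), which is 0.242 (0.208 to 0.281) and 0.207 (0.182 to 0.234) of the basal-like level. *Igf1r*, *Igfbp2* and *Pappa* were also lower than in basal-like cells, with ratios between 0.395 and 0.596 over the 2 libraries. *Igfbp4* and *Igfbp7* had ratios between 0.689 and 1.02.

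With both libraries summed, 8 members had at least 50 UMIs in basal-like and upper-like cells together, and all 8 were at least 2-fold higher in basal-like cells. Over all 11315 genes that met the same minimum, 32.2% were. *Igf1* and *Igf2* were not among the 8. Since the members were chosen by these levels, the count is given beside the background and nothing is read from it. All 10 members met the minimum for fibroblast-like against basal-like cells, and 5 of them, *Igf1*, *Igf2*, *Igfbp4*, *Igfbp5* and *Igfbp7*, were at least 2-fold higher in fibroblast-like cells, against 23.8% of 10604 genes. *H19*, *Igfbp2*, *Igfbp3* and *Pappa* were at least 2-fold lower there, against 15.2% of the same genes. *Igfbp2* met that fold after CpG ODN and stood at 0.584 after LPS.

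Of 18 other genes of the IGF pathway, 8 had at least 50 UMIs in fibroblast-like and basal-like cells together. All 8 were at least 2-fold higher in fibroblast-like cells, against the same 23.8% of all genes. This list too was chosen with earlier results of these data known, and nothing is read from its count. *Igfbp6*, which encodes a binding protein that prefers IGF2, was at 806 and 1030 CPM in fibroblast-like cells and 1.90 and 1.90 CPM in basal-like cells. The PAPPA inhibitor gene *Stc1* had 38.6 CPM (27.4 to 52.7) and 69.5 CPM (47.8 to 97.6) in fibroblast-like cells and 3 and 2 UMIs in basal-like cells. *Htra1*, the gene of a secreted protease that can cut binding proteins, had 818 and 647 CPM in fibroblast-like, 82.7 and 118 CPM in basal-like, and 2.22 and 0.664 CPM in upper-like cells.

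Between basal-like and upper-like cells, 3 of the 6 pathway genes tested were at least 2-fold higher in basal-like cells, against 32.2% of all genes. These were *Htra1*, the receptor adaptor gene *Irs1* and the imprinted adaptor gene *Grb10*. The ratios were 56.0 (43.7 to 72.7), 21.3 (9.15 to 60.5) and 22.9 (11.9 to 49.2) with the libraries summed. *Igf2r*, *Insr* and *Irs2*, which encode the IGF2 clearance receptor, the insulin receptor and another adaptor, had ratios of 1.45, 1.81 and 0.969. The paralog *Pappa2* had no UMI in basal-like, Adh7-led or upper-like cells and 19 and 1 UMIs in fibroblast-like cells.

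A further list, here called the imprinted list, held 16 genes that are imprinted or often reported with imprinted genes, among them *Grb10*. Of 12 tested, 9 were at least 2-fold higher in fibroblast-like than in basal-like cells, against 23.8% of all genes. Another 1, *Slc38a4*, was lower, against 15.2%. *Dcn*, on this list, was also among the markers used to name fibroblast-like cells. The imprinted list was chosen with earlier results of these data known, and nothing is read from these counts. *Meg3*, a maternally expressed non-coding RNA, was at 607 and 748 CPM in fibroblast-like cells and had no UMI in basal-like cells, at least 2239-fold and 1309-fold higher against the floor of 3 counts. *H19* thus had another cell distribution than *Meg3* in these libraries. *Dlk1*, the imprinted neighbour of *Meg3*, was at 36.9 CPM (28.2 to 47.5) and 6.77 CPM (3.87 to 11.0) in Adh7-led cells, where *H19* was highest, and had 3 and 0 UMIs in basal-like cells.

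**Figure D2:**
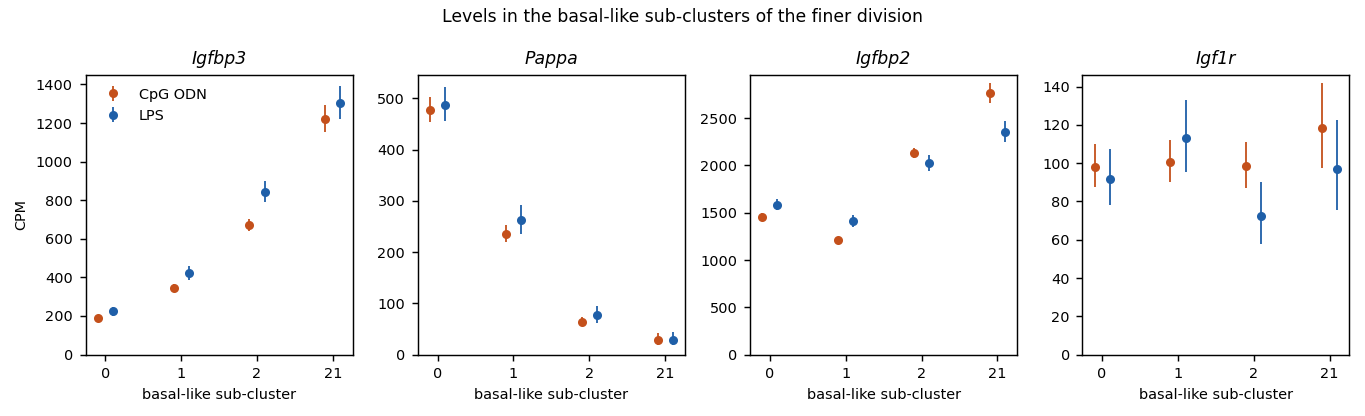
Levels of 4 members (panels, CPM on a linear axis with exact 95% Poisson intervals) in the 4 basal-like sub-clusters of the finer clustering, with CpG ODN in orange and LPS in blue. *Igfbp3* goes from 189 and 224 CPM to 1224 and 1305 CPM from the first to the last sub-cluster, and *Pappa* from 478 and 487 CPM to 29.1 and 29.1 CPM.

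Within the basal layer, *Igfbp3* and *Pappa* had opposite orders. At a finer clustering, again without the 10 genes, 1332 cells fell in 4 basal-like sub-clusters, which are given here in the order of their *Igfbp3* level. The first, led by *Hpgd*, *Cxcl14* and *Col17a1*, held 337 and 112 cells, and the last, led by *Prxl2a*, *Wnt10a* and *Col17a1*, held 87 and 33. From the first to the last, *Igfbp3* was at 189, 343, 671 and 1224 CPM after CpG ODN and at 224, 421, 843 and 1305 CPM after LPS. Over the same sub-clusters, *Pappa* was at 478, 236, 63.9 and 29.1 CPM after CpG ODN and at 487, 262, 76.2 and 29.1 CPM after LPS. The order of both genes was the same in the libraries.

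No other member showed such an order in both libraries over all 4 sub-clusters. *Igfbp4* showed one after CpG ODN, at 86.2, 70.6, 59.1 and 49.8 CPM. *Igfbp2* lay between 1210 and 2770 CPM and *Igf1r* between 72.6 and 118 CPM over sub-clusters and libraries. *H19* and *Igfbp5*, at low level, spread widely, from 4.39 to 39.0 CPM and from 5.54 to 29.6 CPM. *Col17a1*, a basal attachment gene, was at 1352 and 1534 CPM in the first and 1478 and 1500 CPM in the last. *Krt76*, a keratin gene of the layers above, was at 879 and 903 CPM in the first and 2258 and 2105 CPM in the last. It was thus higher where *Igfbp3* was, and so were the basal keratin genes *Krt5* and *Krt14*. *Krt5* went from 6093 and 6210 CPM in the first to 7253 and 8418 CPM in the last. *Krt14* went from 17575 and 17672 CPM to 22988 and 25934 CPM. Whether position between the layers has a part in the orders of *Igfbp3* and *Pappa* was not tested.

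Cell by cell, both genes were shared by many basal-like cells and used alone by many others. After CpG ODN, 374 of 1143 basal-like cells had a UMI of *Igfbp3* only, 281 of *Pappa* only, 390 of both and 98 of neither. After LPS the numbers were 71, 60, 133 and 12 of 276. Deeper cells show more of both, so the cells were compared at 1500 UMIs each. At that depth *Pappa* was found in 14.5% and 14.9% of the cells with *Igfbp3* and in 30.2% and 32.4% of the cells without it. Cells with both then made up 0.583 (0.443 to 0.752) and 0.573 (0.324 to 0.928) of the number that the 2 shares multiplied would give. Without thinning this value was 0.870 and 0.932, so its size depended on the depth per cell while it stayed under 1.

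**Figure D3:**
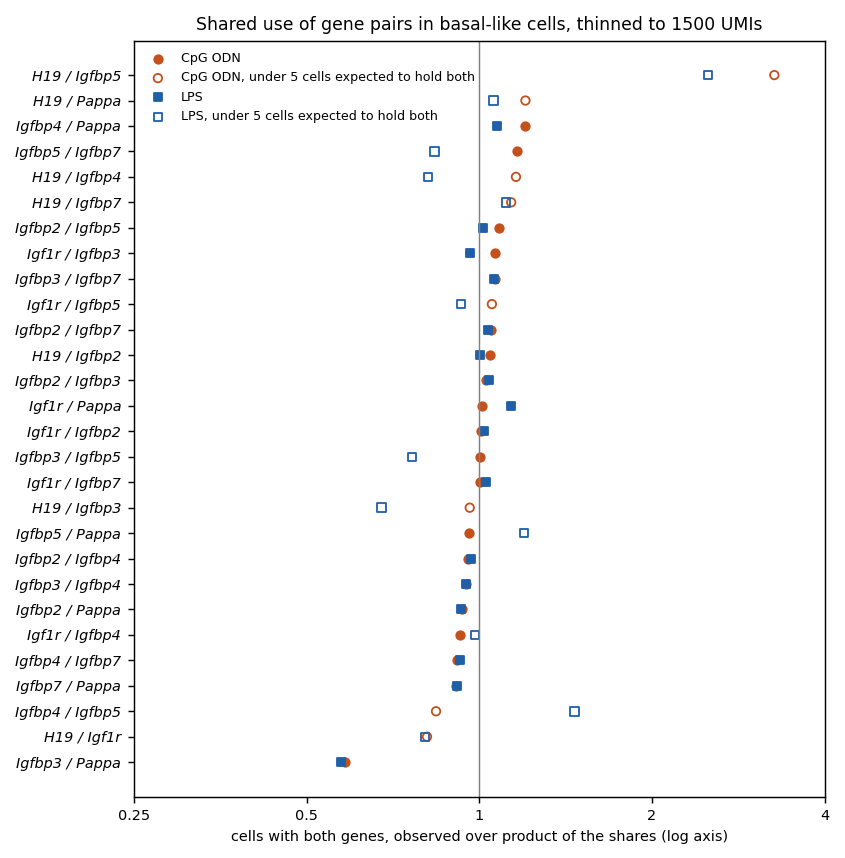
Cells with both genes of a pair over the product of their shares, in basal-like cells thinned to 1500 UMIs, for 28 pairs of members (rows) on a log axis, where 1 is the product itself. Circles are CpG ODN, squares LPS, and open symbols pairs with under 5 cells expected to hold both. The pair of *Igfbp3* and *Pappa* is the lowest in both libraries, at 0.583 and 0.573.

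Among the 28 pairs of the 8 members seen in basal-like cells, the pair of *Igfbp3* and *Pappa* was the lowest in both libraries at 1500 UMIs. As counted, it was the lowest after CpG ODN only. After LPS, *H19* with *Igfbp3* (0.829), with *Pappa* (0.876) and with *Igfbp4* (0.923) then lay under its 0.932. The next lowest pair at 1500 UMIs was *H19* with *Igf1r* after CpG ODN, at 0.811, and *H19* with *Igfbp3* after LPS, at 0.675. These rest on few cells, with both genes in 0.137% and 0.622% of basal-like cells. The highest was *H19* with *Igfbp5*, at 3.27 and 2.50, which rests on 13 and 13 cells with both before thinning. The counting interval of that pair was 0.0709 to 15.6 after CpG ODN. In Adh7-led cells, *Igfbp3* and *Pappa* were found together in 5 of 132 and 11 of 91 cells, a value of 0.419 and 0.666 as counted. At 1500 UMIs the value was 0.103 and 0.392, but both genes were then in only 0.114% and 0.629% of these cells. No interval was made for it.

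**Figure D4:**
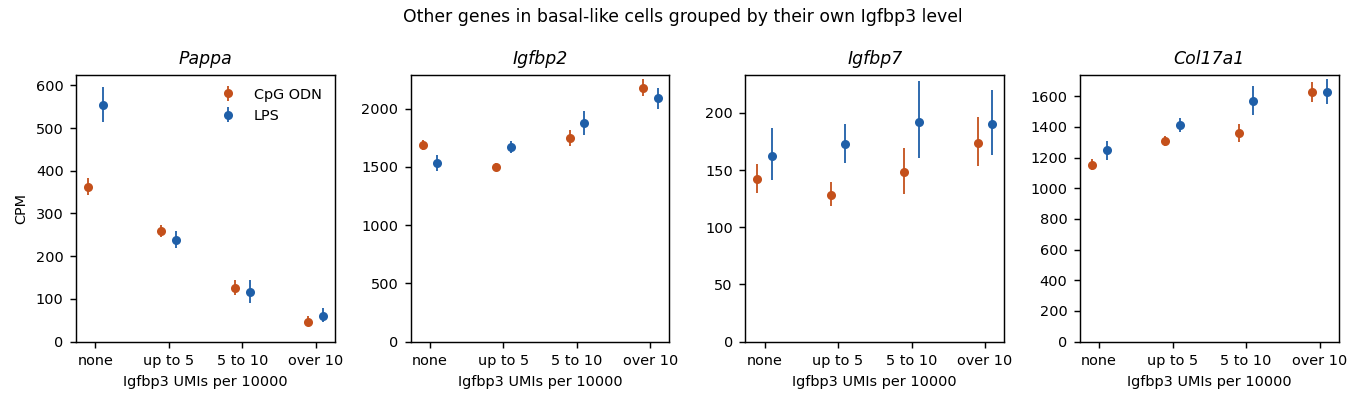
Levels of *Pappa*, *Igfbp2*, *Igfbp7* and *Col17a1* (panels, CPM on a linear axis with exact 95% Poisson intervals) in basal-like cells grouped by their own *Igfbp3* UMIs per 10000 UMIs, with CpG ODN in orange and LPS in blue. *Pappa* is at 363 and 555 CPM in cells without *Igfbp3* and at 46.6 and 59.8 CPM in cells with more than 10.

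The same order was seen when basal-like cells were grouped by their *Igfbp3* UMIs per 10000 UMIs. These groups, the sub-clusters and the shared use all draw on basal-like cells of the same libraries, so they are not separate checks. In cells with none, with up to 5, with 5 to 10 and with more than 10, *Pappa* was at 363, 258, 125 and 46.6 CPM after CpG ODN. After LPS it was at 555, 238, 115 and 59.8 CPM. The median depth of these groups lay between 8743 and 9702 UMIs after CpG ODN and between 16316.5 and 19015 after LPS. *Igfbp2* was at 2178 and 2088 CPM in the cells with more than 10 and at 1684 and 1531 CPM in those with none. *Krt76* was again higher with *Igfbp3*, at 1027 and 710 CPM with none and 1919 and 2313 CPM with more than 10. The basal gene *Col17a1* was higher too, at 1151 and 1247 CPM with none and 1625 and 1628 CPM with more than 10.

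**Figure D5:**
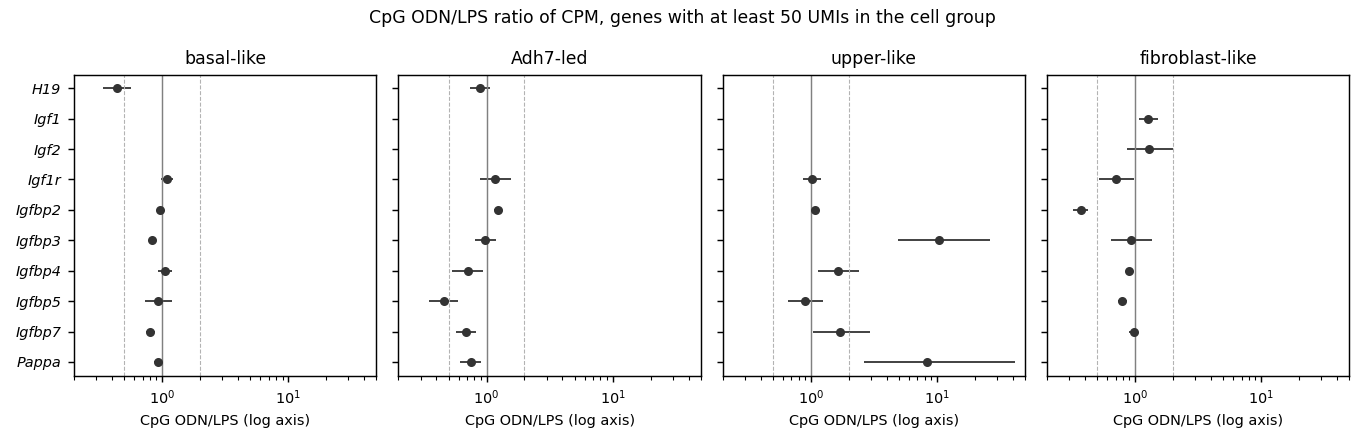
CpG ODN over LPS ratio of CPM for the members in basal-like, Adh7-led, upper-like and fibroblast-like cells, on a log axis with exact 95% intervals. Dashed lines mark 0.5 and 2, and members with under 50 UMIs in a class have no point. *H19* in basal-like, *Igfbp5* in Adh7-led and *Igfbp2* in fibroblast-like cells lie under 0.5, and *Igfbp3* and *Pappa* in upper-like cells lie above 2.

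The ligands were compared within each class, first in the 4 classes of the plot of ratios. In basal-like cells, 1 of the 8 members with at least 50 UMIs was at least 2-fold apart between the libraries, against 1.02% of 9858 genes. This was *H19*, at 11.1 CPM (9.24 to 13.3) and 25.5 CPM (21.4 to 30.2). Its CpG ODN to LPS ratio was 0.436 (0.339 to 0.561). Within the 2 clusters of basal-like cells, the ratio was 0.739 (0.532 to 1.03) in the larger and 0.180 (0.112 to 0.283) in the smaller. *H19* was at 5.56 CPM in the smaller after CpG ODN and 30.8 CPM after LPS. With only cells of at least 1200 detected genes, or with the mean over cells of each cell's own CPM, no member reached 2-fold, and the *H19* ratio lay between 0.439 and 0.546 over 9 alternatives.

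The other 7 members of basal-like cells lay closer together. The ratio was 0.837 (0.799 to 0.876) for *Igfbp3*, 0.806 (0.742 to 0.875) for *Igfbp7*, 0.918 (0.860 to 0.9797) for *Pappa* and 0.968 (0.944 to 0.993) for *Igfbp2*. For *Igf1r*, *Igfbp4* and *Igfbp5* the interval held 1, at 1.09 (0.975 to 1.21), 1.05 (0.922 to 1.19) and 0.931 (0.726 to 1.20). The median log2 ratio of the 8 members was -0.12, against -0.03 for all genes tested.

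In Adh7-led cells, 1 of 8 members was at least 2-fold apart, against 1.62% of 6311 genes. *Igfbp5* was at 45.5 and 99.5 CPM, from 74 and 235 UMIs, a ratio of 0.457 (0.347 to 0.596). *H19* had a ratio of 0.890 (0.740 to 1.07) there, an interval that holds 1, and whether this differed from basal-like cells was not tested. In each library 1 cell held 10.9% and 21.6% of these *H19* UMIs. At the finer clustering, *H19* was at 68.6 and 54.4 CPM in an Adh7-led cluster of 134 cells. Another, of 128 cells, had 125 and 199 CPM, the opposite direction. From the imprinted list, *Dlk1* and *Dcn* were also more than 2-fold apart in Adh7-led cells, in opposite directions, at 5.45 (3.097 to 10.1) and 0.474 (0.432 to 0.519). *Dlk1* had 60 and 16 UMIs there, and over all classes only 0.573% and 0.783% of cells had a UMI of it.

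In upper-like cells, 2 of 7 members were at least 2-fold apart, against 2.42% of 10087 genes. Both were basal genes at low level. *Igfbp3* had 137 and 7 UMIs, a ratio of 10.3 (4.88 to 26.2), with a UMI in 6.48% and 2.08% of cells. *Pappa* had 47 and 3 UMIs, a ratio of 8.27 (2.66 to 41.5). The *Igfbp3* ratio was 0.932 once the 5% of cells with the most UMIs in each library were left out. In B-like cells after CpG ODN, *Igfbp3* and *Pappa* were at 5.90 and 1.48 CPM, from 4 UMIs and 1 UMI, beside upper-like levels of 5.33 and 1.83 CPM. The part of free RNA or of doublets in these ratios was not tested. *Igfbp2*, far above its B-like level, had a ratio of 1.08 (1.05 to 1.12).

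In fibroblast-like cells, 1 of 8 members was at least 2-fold apart, against 4.21% of 4229 genes. *Igfbp2* was at 376 CPM (339 to 416) and 1015 CPM (927 to 1110), and the ratio was 0.370 (0.323 to 0.424). A UMI was found in only 15 of 235 and 11 of 53 cells, and 1 cell held 41.8% and 25.1% of the *Igfbp2* UMIs. Some of these cells also carried keratin RNA. Of the 9 and 8 cells with at least 10 *Igfbp2* UMIs, 5 and 2 had at least 10 UMIs of *Krt14*, and the other 4 and 6 had at most 2. Without all cells with at least 10 *Krt14* UMIs, the levels were 268 and 1027 CPM.

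By cluster, *Igfbp2* was at 210 and 1066 CPM in the larger fibroblast-like cluster, of 192 and 50 cells. The smaller, led by *Crabp1*, *Wif1* and *Tnn*, had 1128 CPM in 43 cells after CpG ODN and 118 CPM in 3 cells after LPS. *Igf1* had a ratio of 1.27 (1.06 to 1.51), *Igf2* 1.30 (0.869 to 1.98), *Igf1r* 0.708 (0.512 to 0.984), *Igfbp4* 0.886 (0.838 to 0.937), *Igfbp5* 0.790 (0.728 to 0.858) and *Igfbp7* 0.970 (0.896 to 1.05). Of these, *Igfbp5* turned to 1.02 when the cell with the most *Igfbp5* UMIs was left out of each library, which held 6.87% and 30.6% of them.

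In dividing keratinocytes, 3 of 8 members were at least 2-fold apart, against 1.47% of 7491 genes, and all 3 were lower after CpG ODN. *H19* had a ratio of 0.414 (0.292 to 0.587) and *Pappa*, at 64.9 and 136 CPM, a ratio of 0.477 (0.392 to 0.579). *Igfbp5* had 28 and 73 UMIs and a ratio of 0.184 (0.114 to 0.287), with 43.8% of its UMIs after LPS in 1 cell. In intermediate cells 1 of 8 members was apart, against 0.966% of 10248 genes. This was *H19*, with 14 UMIs in 6 cells and 61 UMIs in 5 cells, a ratio of 0.0861 (0.0445 to 0.156). In each library 1 cell held 64.3% and 50.8% of these UMIs.

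The other classes held fewer cells. In gland-like cells 2 of 5 members were apart, against 8.15% of all genes, *Igfbp2* at 2.43 (1.59 to 3.77) and *Igfbp5* at 0.351 (0.2005 to 0.591). In mural-like cells 1 of 5 was, against 3.61%, *Igfbp2* with 69 and 3 UMIs and a ratio of 11.8 (3.87 to 58.5). In endothelial-like cells 2 of 4 were, against 5.88%, *Igfbp4* at 0.485 (0.340 to 0.685) and *Igfbp5* at 6.28 (4.10 to 10.1), the latter with 45.7% and 70.8% of its UMIs in 1 cell. None of 3 members was in Krt4-led upper cells, against 2.18%.

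None of the pathway genes tested was 2-fold apart between the libraries in basal-like (6 genes), Adh7-led (3) or fibroblast-like cells (6). In upper-like cells 1 of 4 was, *Htra1*, with 57 and 9 UMIs and a ratio of 3.34 (1.64 to 7.68). Of the imprinted list, none of 9 in basal-like and none of 10 in fibroblast-like cells was 2-fold apart. In upper-like cells 1 of 6 was, *Dcn*, with 419 and 82 UMIs and a ratio of 2.70 (2.12 to 3.46). In Krt4-led upper cells *Dcn* lay the other way, at 0.484 (0.303 to 0.750), and in endothelial-like cells *Dcn* and *Cdkn1c* were apart, at 2.59 (1.36 to 5.26) and 0.331 (0.183 to 0.577). The PAPPA inhibitor gene *Stc2* was apart in gland-like cells, at 0.408 (0.243 to 0.663).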

How the data were processed

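Single-cell RNA-seq (10x Genomics, 3′) was done on pooled gingival cells of 4 mice per ligand. The counts of UMIs per gene and cell were deposited by the authors as a matrix per library, made with Cell Ranger 4.0.0 per the file headers, and the genome build is not given in the sources used here. The submitters' processing notes also name Seurat. The matrices held 6219 barcodes and 72173148 UMIs after CpG ODN, and 2016 barcodes and 38656738 UMIs after LPS. Coordinates were matched by identifier to the GENCODE M21 annotation of GRCm38, which listed 32158 of 32285 identifiers. Promoters and microRNAs were from RefSeq on GRCm38.p6.

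Barcodes with fewer than 800 detected genes were left out. After scaling each cell to 10000 UMIs and taking logs, 2000 variable genes, 30 principal components and 15 neighbours were used for Leiden clustering at resolution 1.0, or 2.0 for the sub-clusters. The 10 genes and both gene lists were held out of the clustering. Of 27 clusters, 25 were named or described from markers, and 2 stayed unnamed. The limits between keratinocyte classes were set after the data were seen. Doublets were kept, and no doublet caller was run.

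UMIs were summed per class and library. Intervals were exact Poisson for CPM, exact conditional binomial for ratios and Clopper-Pearson for shares, all at 95%. The interval of shared use takes the number of cells with both genes as a binomial count and the shares as known. Shares were thinned in expectation to 1500 UMIs per cell, which left out 13 and 0 cells. A floor of 3 counts stood for 0. Genes with at least 50 UMIs in the classes compared were counted. With 1 library per ligand no test was run and no p-value is given.

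All members are reported. The members, the pathway and imprinted lists and the markers were chosen with earlier results of these data known. Python 3.11.15 was used with leidenalg 0.10.2, igraph 0.11.9, scikit-learn 1.9.0, scipy 1.17.1, numpy 2.4.6, pandas 2.3.3 and matplotlib 3.10.9. The steps were tested on simulated data. Other settings tried are given in the closing section, and the untreated and ligature libraries were not analysed here.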

Additional observations from a re-analysis of the deposited data

Results flagged for a closer look

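Among basal-like, upper-like and fibroblast-like cells, the CpG ODN to LPS ratios of 5 members lay on opposite sides of 1, with counting intervals that did not hold 1. *Igfbp2* had a ratio of 1.08 in upper-like, 0.968 in basal-like and 0.370 in fibroblast-like cells. *Igfbp3* had 10.3 in upper-like and 0.837 in basal-like cells, and *Pappa* 8.27 and 0.918. *Igfbp7* had 1.71 in upper-like and 0.806 in basal-like cells. *Igfbp4* had 1.64 in upper-like and 0.886 in fibroblast-like cells. With 1 library per ligand these differences were not tested, and the upper-like values of all but *Igfbp2* rest on 3 to 137 UMIs per library.

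The barcodes with fewer than 800 detected genes, which no comparison used, held 388 UMIs of the 10 genes in 1331 barcodes after CpG ODN and 72 in 739 barcodes after LPS. These are 240 and 47.9 CPM, against 1275 and 1229 CPM in the kept cells. Hemoglobin genes took 23.5% and 74.8% of the UMIs of these barcodes.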

How the results depend on the processing

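Of 57 values of the counts and of shared use under alternative settings, 49 stayed close to the main value (within 1.5 times a count, or within the interval of a ratio). In basal-like cells, the count of members at least 2-fold apart went from 1 to 0 with cells of at least 1200 detected genes and to 0 with the mean over cells. In upper-like cells it went from 2 to 1 with cells of at least 200 detected genes, to 0 without the 5% of cells with the most UMIs, and to 1 without the top cell of each gene. The shared use of *Igfbp3* and *Pappa*, 0.583 and 0.573, became 0.870 after CpG ODN and 0.932 after LPS as counted with no thinning, and 0.773 after CpG ODN when thinned to 5000 UMIs. Of 215 member ratios, 201 stayed within the interval of the main ratio, 11 moved out of it and 3 reversed. The reversed ratios were *Igfbp5* in fibroblast-like cells, 1.05 with the mean over cells and 1.02 without the top cell, and *Igfbp3* in upper-like cells, 0.932 without the 5% of cells with the most UMIs. The cause was not tested, and fewer cells or UMIs entered where cells were left out. Leaving out cells with *Krt14* UMIs and using each library alone were chosen after seeing the data. No paired analysis was possible because there was a single library per ligand. The LPS cells were fewer and deeper, so rare genes are limited by cell number there and by depth after CpG ODN.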

Other observations

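Across 41 groups of cells, each a cluster of at least 20 cells in 1 library, the genes with the level most like that of each member were found by Pearson's r of log2(CPM + 10) among 9295 genes with at least 500 UMIs. The groups share libraries and depth, and r is given as a description. *Igf1* was nearest to *Trf*, *Postn* and *Fn1*, with r between 0.94 and 0.96. The genes nearest to *Igf2* were *Cygb* (r = 0.96), *Igfbp6* and *Ccdc80*. *Igfbp4* was nearest to *P3h3* (r = 0.92), *Igfbp5* to *Serpine2* (r = 0.93) and *Igfbp7* to *Tns1* (r = 0.95) and *Sparc* (r = 0.94). For the epithelial members, *Igfbp2* was nearest to *Fjx1* (r = 0.90), *Igfbp3* to *Snai2* (r = 0.90) and *Pappa* to *Wnt10a* (r = 0.92). Inside the basal layer, however, *Wnt10a* and *Pappa* had opposite orders. From the first to the last basal-like sub-cluster, *Wnt10a* went from 131 and 160 CPM to 292 and 337 CPM, while *Pappa* fell. *Igf1r* was nearest to *Svil* (r = 0.94). *H19* was nearest to *Prxl2a* (r = 0.76), *Vsnl1* and *Car12*. *Igfbp3* and *Pappa*, with opposite orders inside the basal layer, had r = 0.76 over all groups.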
